A study of Mus musculus with 47 samples.

Results

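Reads, labeling and loss of label were examined for 10 genes of the actin cytoskeleton in P19 cells, which are mouse embryonal carcinoma cells that turn into neurons under retinoic acid, by SLAM-seq. The genes were the cytoplasmic actins Actb and Actg1, the 4 tropomyosins Tpm1, Tpm2, Tpm3 and Tpm4, the transgelins Tagln and Tagln2, the myosin light chain gene Myl9 and the cofilin gene Cfl1. Every distinct 3′ UTR interval that carried a RefSeq mRNA name of these genes was kept, which gave 16 of the 30432 distinct intervals in the data. The genes were chosen by name with their read levels in these libraries already known. The difference in reads between the states is therefore given as a description, with no test.

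Undifferentiated wild-type cells (D0) were grown in DMEM with serum, and cells at day 6 of differentiation (D6) had been kept in NDiff 227 medium with 500 nM retinoic acid. Cells took up 4-thiouridine (4sU), a uridine analog that is read as C in place of T after alkylation. T>C conversions beyond those found in cells without 4sU therefore mark RNA made in the presence of 4sU. D0 cells received 20 µM 4sU and D6 cells 500 µM, so that dose and state cannot be told apart. In the anabolic assay the uptake of label was followed, and in the catabolic assay cells were labeled for 15 h and its loss was followed during a chase with UTP. The methods state this labeling as 15 h and, in another passage, as 13 h, and it is called 15 h here. Both assays had 4 time points, 0, 3, 6 and 9 h in the methods and 0, 1, 3 and 9 h in the sample labels, and the hours of the methods were used unless stated. The 47 libraries comprised 24 of D0 and 23 of D6, with 3 libraries in each of 15 groups and 2 in that of D6 at 6 h of the catabolic assay. Cells at 0 h of the anabolic assay had received no 4sU. The paper calls the replicates of these assays biological, and the labels do not say whether they were separate cultures. Errors and p-values therefore measure the spread between these libraries only.

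Libraries held 3447888 to 11677046 reads on 3′ UTRs at D0 and 1489528 to 7930149 at D6. Levels below are given as CPM, the reads on an interval scaled to the reads of its library on all 3′ UTRs. At D0, 3 libraries stood apart from their group in the level of Actb, replicate 26 (after 15 h of 4sU), replicate 56 (no 4sU) and replicate 72 (9 h of uptake). Actb stood at 11495, 11532 and 10424 CPM in them and at 6778 to 8026 in the other libraries of their groups, and Tpm3 stood at 172 to 215 CPM in them. Of all D0 libraries, replicates 26 and 56 were most like replicate 72 across intervals (Pearson r of log levels of 0.882 and 0.835). The mean r with the other libraries of the group did not by itself single them out. It was 0.768 and 0.744 for replicates 26 and 56, the lowest of the D0 libraries, but 0.778 for replicate 27 and 0.894 for replicate 72. It ran from 0.744 to 0.955 over D0 libraries, and from 0.499 to 0.787 over D6 libraries. At D6 the lowest values were those of replicates 14 and 15, the only libraries at 6 h of the chase (0.499), and of replicate 53 (0.583), and replicate 14 also had reads on the fewest intervals, 7715.

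Actin is the protein of the thin filaments that shape the cell and drive its movement. Tropomyosins are coiled-coil proteins that lie along the filament and control which other proteins can bind it, and each tropomyosin gene makes several isoforms, in part through alternative last exons with 3′ UTRs of their own. Transgelins are small actin-bundling proteins of the calponin family, and Tagln is a classic gene of smooth muscle and mesenchyme. Myl9 encodes a regulatory light chain of myosin II, the motor that pulls on actin filaments, and Cfl1 encodes cofilin, which severs filaments. Many genes of this group are targets of serum response factor (SRF), whose coactivators respond to the pool of actin monomers.

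The libraries were made from the 3′ ends of poly(A) RNA, so that a read reports which 3′ end a transcript has. The ends of Tpm1, Tpm3, Actb and Tagln2 are shown because the results below turn on them. They were read from GENCODE vM21 transcripts (GRCm38) that end within 10 bases of the interval's end, 5′ to 3′ on the strand of the gene, and capitals mark the poly(A) signal AATAAA, which 64.7% of the 17091 intervals matched in this way hold within their last 50 bases.
Tpm1, end of the 766-base 3′ UTR, chr9:67022603-67022632, minus strand: ataatgatatgaAATAAAacgcacatttag
Tpm1, end of the 274-base 3′ UTR, chr9:67027901-67027930, minus strand: gtctcaacgctcAATAAAactacacttctg
Tpm3, end of the 1292-base 3′ UTR, chr3:90100864-90100893, plus strand: gtgacattttgaAATAAAgaaccagtccct
Tpm3, end of the 329-base 3′ UTR, chr3:90098750-90098779, plus strand: atattttctaacAATAAAagcactgacttg
Actb, chr5:142903129-142903158, minus strand: tgacttgagaccAATAAAagtgcacacctt
Tagln2, chr1:172507338-172507367, plus strand: ttgctgattttaAATAAAaagatctcattt

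The state of the cells was checked with marker genes in the libraries without 4sU, by edgeR's quasi-likelihood test with Benjamini-Hochberg adjustment. Of 12 neuronal markers, 11 were higher at D6, with a median log2 difference over the list of 3.41, and of 6 embryonal carcinoma markers tested, 5 were lower, with a median of -6.98. Markers of smooth muscle and mesenchyme had reads at D0, with Acta2 at a mean of 88.4 CPM, and had a lower sum at D6. Their 14 genes summed to 190 to 204 CPM at D0, of which Acta2 and Smtn made up most, and to 8.88 to 21.3 at D6, and of the 4 that could be tested Acta2 was lower. Of the list, 5 genes (Myh11, Col3a1, Postn, Lum and Dcn) had no reads at D0 and 10 had none at D6. At D0 Col1a2 had a mean of 20.7 CPM and Col1a1 of 10.6, and Cnn1, Pdgfra, Des, Twist1 and Pdgfrb of 2.04 to 5.46. Primitive endoderm markers summed to 1516 to 2404 CPM at D0 and 404 to 575 at D6, with 3 of 5 tested lower and 5 of 10 at 0 in each state, and glial markers to 4.36 to 65.6 and 32.2 to 64.4, with none of 2 tested called. The part of such cells in the results was not tested, and in these bulk libraries fewer cells that express a gene and less RNA per cell cannot be told apart.

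Actb, the beta-actin gene, had the most reads of the group in both states, and its level at D6 overlapped that at D0. Its interval is 683 bases long (chr5:142903115-142903797, minus strand, mm10). Without 4sU its level was 7003, 11532 and 6778 CPM in the D0 libraries and 5007, 8158 and 5750 in the D6 libraries. The highest of these values belonged to replicate 56, and the D6 values fell on both sides of the other D0 values. The log2 difference between D6 and D0 was -0.41 (SE 0.30). With a library left out it ran from -0.67 to -0.016, the latter without replicate 56. The overlap without 4sU rested on the D6 library at 8158 CPM, replicate 38, since the other D6 values were below all D0 values. Over all time points of both assays, Actb had a lowest, median and highest level of 6496, 7318 and 11532 CPM in 24 D0 libraries and 5007, 7873 and 10644 in 23 D6 libraries.

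Actg1 encodes gamma-actin, the other actin of non-muscle cells. Its interval (chr11:120345687-120346389, minus strand) was nearly without reads, with a median of 3.67 CPM at D0 and 1.63 at D6, and it had no reads in at least 1 library of each state. The deposited counts hold no reads that map to several places, and whether this lowered Actg1 was not tested. The log2 difference without 4sU was -0.93 with an SE of 2.34, so that no direction can be given.

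Of the interval of Cfl1 (chr19:5493494-5494031, plus strand), 33.8% overlaps coding sequence in GENCODE. Cfl1 was at 765, 506 and 608 CPM at D0 without 4sU and at 472, 389 and 463 at D6. All D6 libraries were below all D0 libraries, by a log2 of -0.46 (SE 0.24). Over all libraries the ranges overlapped, with a lowest, median and highest level of 436, 669 and 765 at D0 and 185, 484 and 3165 at D6. The highest value came from 1 library, D6 replicate 53 after 9 h of uptake.

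**Figure D1:**
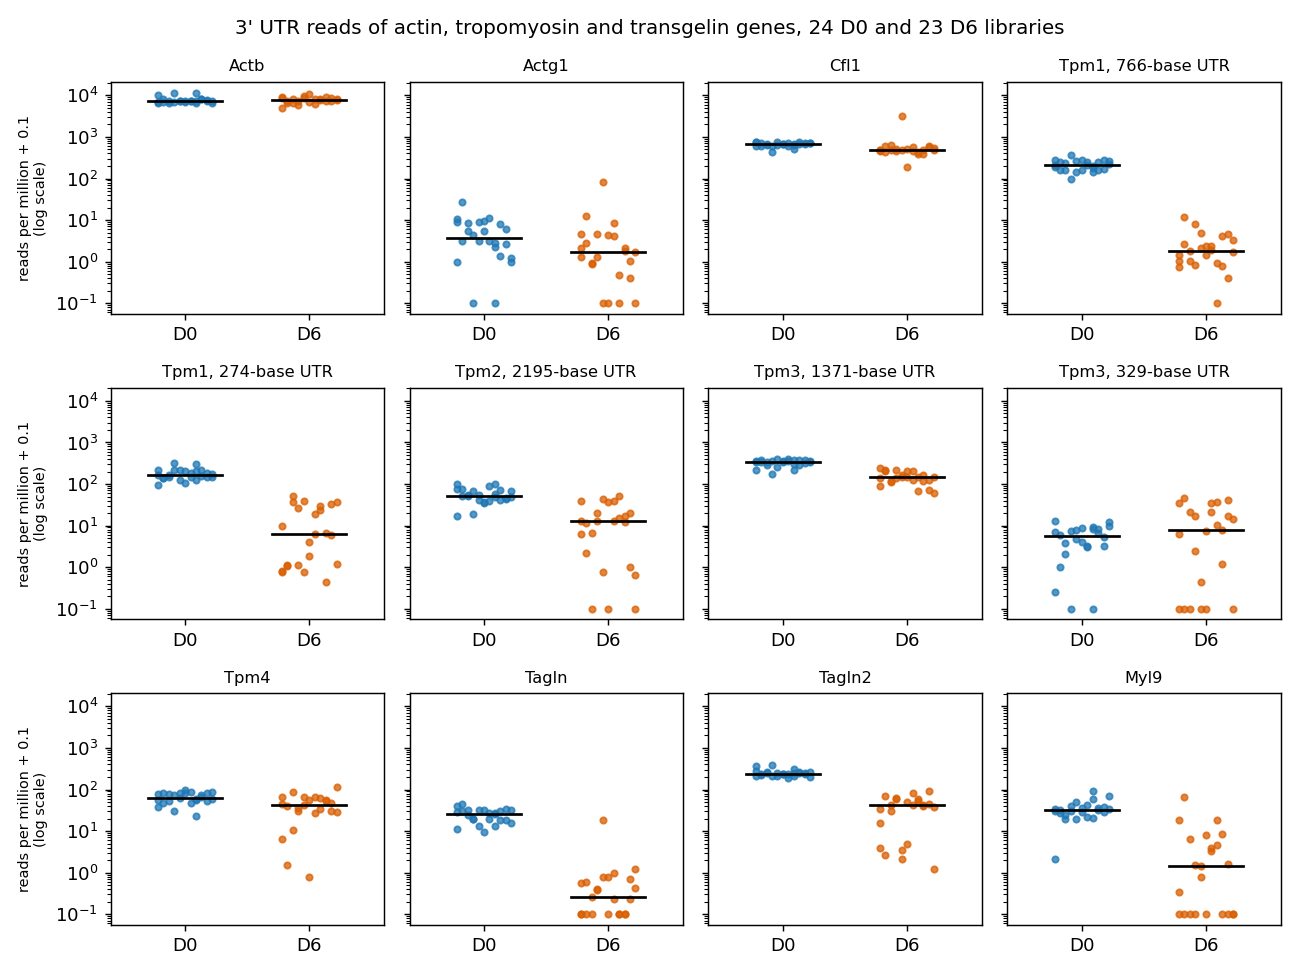
Level in CPM of 12 member intervals (log axis) in the 24 D0 and 23 D6 libraries, each point a library, with libraries without reads drawn at 0.1 and the median as a black line. The D0 and D6 points of Actb overlap, whereas those of Tagln2 and of the Tpm1 intervals of 766 and 274 bases do not.

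The make-up of the tropomyosin reads differed between D0 and D6. Summed over the 4 genes, they made up 638 to 1040 CPM in the D0 libraries (median 864) and 94.1 to 322 in the D6 libraries (median 241), and the states did not overlap. Tpm1 held a median of 44.8% of these reads at D0 (36.3 to 60.9%) and 3.72% at D6 (0.544 to 28.9%), and Tpm3 a median of 40.5% at D0 (24.8 to 47.7%) and 67.1% at D6 (45.6 to 97.2%). Tpm4 had a median share of 7.74% at D0 and 20.6% at D6, and Tpm2 one of 6.25% and 6.01%. Such shares compare 3′ ends and not reads along a transcript, and were therefore not divided by length.

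Tpm1 has 3 intervals. The most distal is 766 bases long (chr9:67022593-67023358, minus strand), the next 650 bases (chr9:67023842-67024491) and the most proximal 274 bases (chr9:67027890-67028163), of which 31% overlaps coding sequence of other transcripts in GENCODE. The 766-base interval was at 276, 202 and 358 CPM at D0 without 4sU, from 1979, 1111 and 2434 reads, and at under 1 at D6, from 3, 3 and 5 reads. The pooled ratio of D0 to D6 was 390, with an exact 95% interval of 218 to 783 that covers counting error only, and the log2 difference was -8.49 (SE 0.47). Over all libraries the level ran from 96.6 to 358 at D0 (median 216) and from 0 to 11.9 at D6 (median 1.70). No D6 library reached the lowest D0 library.

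The 274-base end of Tpm1 was at 221, 301 and 219 CPM at D0 without 4sU and at 0.657, 29.7 and 1.00 at D6, and the log2 difference was -4.56 (SE 1.15). It was -8.15 without D6 replicate 38, the library at 29.7. Over all libraries this end ran from 93.9 to 317 at D0 and from 0.336 to 50.1 at D6, again without overlap. The 650-base interval had medians of 0 in both states and was not tested. Of the reads on the 766-base and 274-base ends, the share on the 766-base end had a median of 54.97% at D0 (23.3 to 66.4%) and of 23.1% at D6. At D6 this share ran from 0 to 92.6% and rested on as few as 6 reads in a library.

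Tpm3 was the tropomyosin with the highest level at D6. Almost all of its reads fell on the distal interval of 1371 bases (chr3:90099532-90100902, plus strand), which contains the interval of 1292 bases (chr3:90099611-90100902) and shares nearly all of its reads. Without 4sU its level was 359, 215 and 361 CPM at D0 and 137, 150 and 143 at D6. All D6 libraries were below all D0 libraries, by a log2 of -1.07 (SE 0.28), and the D6 libraries were close to each other. Over all libraries the ranges overlapped, 172 to 408 at D0 (median 345) and 60.4 to 243 at D6 (median 147), and the lowest D0 values were those of the libraries that stood apart. Without replicate 56 the log2 difference was -1.22.

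A proximal end of Tpm3, of 329 bases (chr3:90098455-90098783), took a median of 1.65% of the reads on these 2 ends at D0 and 5.94% at D6. The highest group mean was 24.3% ± 10.8 (SD, n = 3), at 3 h of the D6 chase. Shares at D6 ran from 0 to 36.2%, and those at D0 from 0 to 5.74%. The log2 difference of this end without 4sU was -0.094 with an SE of 2.31. The 196-base interval of Tpm3 (chr3:90091935-90092130) had 306 reads in all 47 libraries and was not tested.

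Tpm2 was at 75.8, 102 and 18.5 CPM at D0 without 4sU and at 38.1, 14.7 and 12.9 at D6, on its interval of 2195 bases (chr4:43513726-43515920, minus strand), and the groups overlapped. The log2 difference was -1.60 (SE 0.76). With a library left out it ran from -2.24 to -1.005, the latter without replicate 56. The distal 1053 bases (chr4:43513726-43514778) form an interval of their own, of which 6.46% is 3′ UTR in GENCODE. They held a median of 91.6% of the Tpm2 reads in a D0 library (71.9 to 100%) and 43.1% in the 20 D6 libraries with such reads (0 to 100%). Pooled over libraries this was 8271 of 9309 reads (88.8%) at D0 and 583 of 1559 (37.4%) at D6. The states overlap in this share, and single D6 libraries hold few reads. In reads on the 1053-base interval, all D6 libraries without 4sU were below all D0 libraries, by a log2 of -2.79 (SE 1.17). This was -3.96 to -2.18 with a library left out, and over all libraries the ranges overlapped.

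Tpm4 (chr8:72151825-72153129, plus strand) was at 55.98, 22.5 and 74.7 CPM at D0 without 4sU and at 64.6, 33.03 and 34.97 at D6. These values overlapped, and the log2 difference was -0.14 (SE 0.59), between -0.50 and 0.20 when a library was left out. Over all libraries its level ran from 22.5 to 94.97 at D0 and from 0.671 to 115 at D6. The larger share of Tpm4 in the tropomyosin reads at D6 thus stood beside a level that overlapped that at D0.

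**Figure D2:**
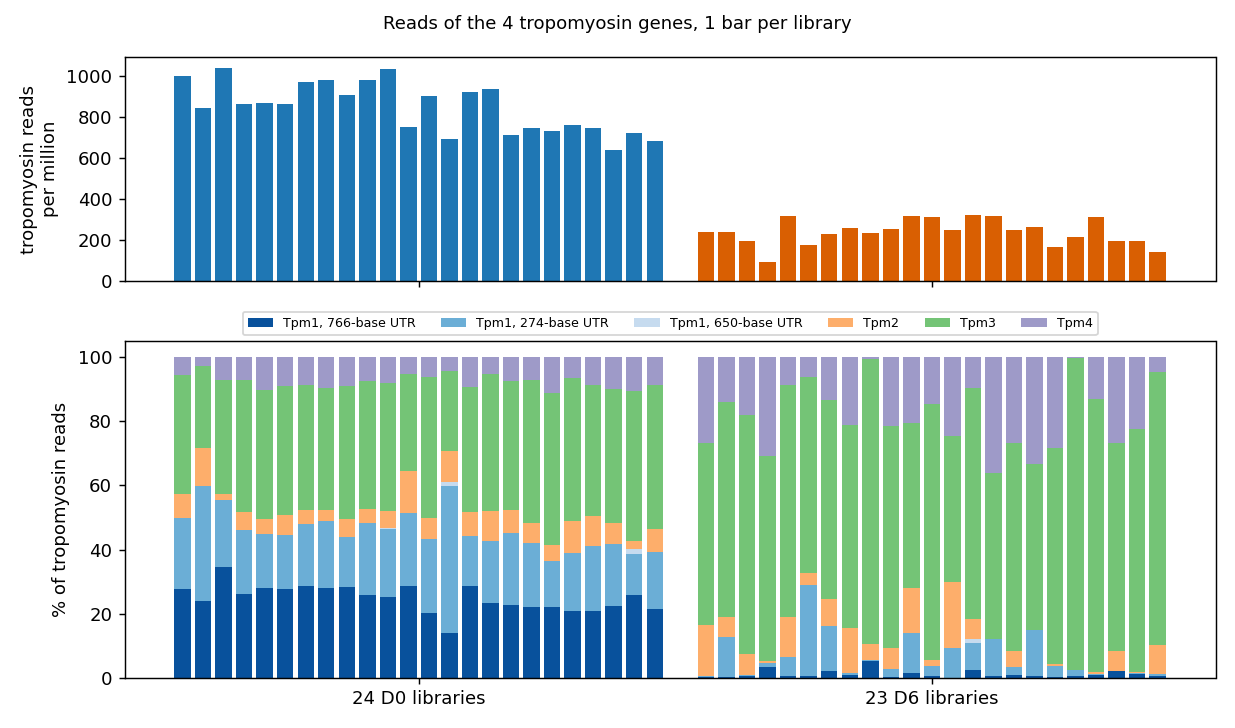
Total tropomyosin reads in CPM in each library (upper panel) and the percent of them on each gene or end (lower panel), for D0 and D6 libraries. The total is 638 to 1040 at D0 and 94.1 to 322 at D6, and the Tpm1 part that holds a median of 44.8% at D0 holds 3.72% at D6.

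Tagln, which encodes transgelin or SM22, is on one interval (chr9:45929628-45930370, minus strand). Its level was 29.4, 26.9 and 19.6 CPM at D0 without 4sU, and at D6 it was 0 in 2 libraries and 0.287 in the other. This came from 492 reads at D0 and 2 at D6, a pooled ratio of 191 with an exact 95% interval of 52.7 to 1584 for counting error only. The log2 difference was -7.54 (SE 1.75), and -10.1 to -7.06 with a library left out. Over all libraries the level was 9.24 to 45.2 at D0 (median 26.2) and 0 to 18.2 at D6 (median 0.160), and 22 of 23 D6 libraries were below the lowest D0 library. The other one, replicate 17 at 9 h of the chase, held 54 of the 73 Tagln reads at D6. Every D0 library thus held Tagln reads at a low level, whereas 9 D6 libraries held none and the other D6 libraries, replicate 17 aside, held 3 or fewer.

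Tagln2, the transgelin of non-muscle cells (chr1:172506709-172507375, plus strand), was at 214, 318 and 208 CPM at D0 without 4sU and at 34.6, 52.7 and 59.8 at D6, by a log2 of -2.32 (SE 0.38). Over all libraries its level was 193 to 382 at D0 (median 242) and 1.09 to 90.4 at D6 (median 41.99), with no overlap. The 2 transgelins thus differed in level at D0, where Tagln2 had more reads than Tagln in every library without 4sU.

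Myl9 (chr2:156781163-156781657, plus strand) was at 33.6, 93.1 and 39.6 CPM at D0 without 4sU and at 0, 18.6 and 1.43 at D6. The groups did not overlap in these libraries, the pooled ratio was 10.3 (exact 95% interval 8.18 to 13.2, counting error only), and the log2 difference was -3.05 (SE 1.397). The highest value of each group came from 1 library, replicate 56 at D0 and replicate 38 at D6, and the log2 difference was -2.32 without replicate 56 and -6.18 without replicate 38. Over all libraries Myl9 ran from 2.04 to 93.1 at D0 (median 32.8) and from 0 to 66.6 at D6 (median 1.33). The ranges overlapped, while 14 of 23 D6 libraries were below the lowest D0 library and 9 had no reads.

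Without 4sU, 14 member intervals had enough reads to be tested, which counts the overlapping intervals of Tpm2 and of Tpm3 separately. Of these, 9 were lower in every D6 library than in every D0 library and 0 were higher. Of all 11627 intervals tested, 17.3% were lower in this way and 17.6% higher. Over all libraries, 3 intervals were lower in every D6 library, against 2.60% of all intervals. Since the genes were chosen with these levels known, nothing is read from these counts. The median log2 difference over all intervals was -0.046, with quartiles of -0.86 and 0.93, and edgeR called 11.7% of them at an adjusted p under 0.05.

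**Figure D3:**
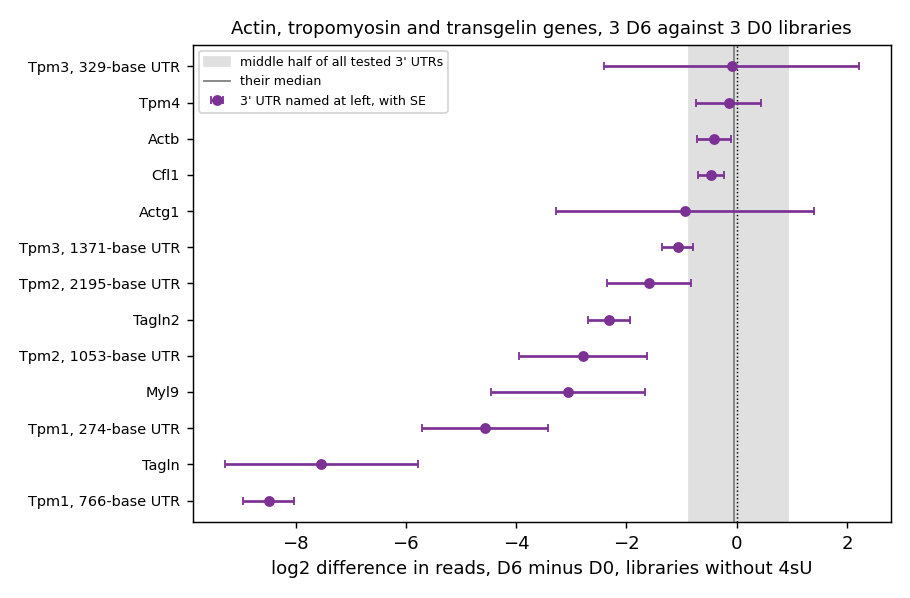
Log2 difference in reads between D6 and D0 without 4sU for the member intervals tested except the Tpm3 interval of 1292 bases, ordered by size, with bars of 1 SE (3 against 3 libraries) and a grey band between the quartiles of all intervals tested. The 766-base end of Tpm1 lies at -8.49 and Tagln at -7.54, whereas Actb, Cfl1, Tpm4 and the 329-base end of Tpm3 lie inside the band.

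Promoter sequences were searched for the CArG box, the binding motif of SRF, on both strands from 250 bases before to 50 bases after the start, in RefSeq entries (GRCm38.p6) that covered 8 of the 10 genes with 9 promoters. Tagln and Actb had no entry. The motif was present in 1.63% of 32851 promoters. Among the members it was found in Myl9 and Actg1, shown here because only these 2 genes held it, with the motif in capitals. No match in the other windows says only that these letters are not in them.
Myl9, from 161 bases before the start, chr2:156775293-156775322, plus strand: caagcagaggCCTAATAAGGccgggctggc
Actg1, from 90 bases before the start, chr11:120348566-120348595, minus strand: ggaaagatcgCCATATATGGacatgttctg

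Other genes of actin filaments moved in both directions between the states. Of 98 genes in 8 lists, 84 could be tested without 4sU, and edgeR called 4 higher and 9 lower at D6, whereas 71 did not pass, with a median log2 difference of -0.34. Among all intervals tested, 6.74% were higher and 5.01% lower. The lists were chosen with earlier results of these data known, so that nothing is read from how many of their genes were called. With each of the 6 libraries left out in turn, 7 to 16 genes of the lists were called, 7 without D6 replicate 37. Of the 13 genes, 7 (Acta2, Cfl2, Tmod2, Cald1, Pls3, Flna and Myh9) kept their call in all 6 of these fits, whereas Actn4 kept it in 5, Evl and Cnn2 in 3, Tmsb10 and Arpc2 in 2 and Actc1 in 0. Of the 2 muscle actins with reads, both were lower at D6. Acta2, the actin of smooth muscle, was at 78.2 to 101.4 CPM at D0 and 0.657 to 7.22 at D6 (log2 -4.86, SE 0.93, edgeR adjusted p = 0.0068). Actc1, the cardiac actin, was at 6.82, 16.2 and 18.002 at D0 and had no reads at D6 (edgeR adjusted p = 0.0498, and 0.087 to 0.13 with a library left out). With a floor of 3 reads over the D6 group its pooled level was at least 66.9-fold lower, a bound that leaves out the spread between libraries. Acta1 and Actg2 had no reads in the 6 libraries.

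Among 14 monomer and filament turnover factors tested, 2 were higher at D6 and 0 lower. Cfl2, the cofilin of muscle, was at 9.27 to 36.6 CPM at D0 and 147 to 206 at D6 (log2 2.93, SE 0.51, edgeR adjusted p = 0.0039), and Tmsb10, a thymosin that binds actin monomers, rose by a log2 of 1.55 (edgeR adjusted p = 0.046). Cfl1 and Cfl2 thus had different values in the same libraries, -0.46 and 2.93. Of 13 capping, tropomodulin and formin genes, Tmod2, a neuronal protein that caps filaments coated with tropomyosin, rose by 2.56 (edgeR adjusted p = 0.0047) and Evl by 1.43 (edgeR adjusted p = 0.026), and 11 did not pass.

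The cross-linkers and the calponin family, to which the transgelins belong, had 5 of 18 tested genes lower at D6 and 0 higher. Cald1, caldesmon, which binds actin and tropomyosin, fell by 3.22 (log2, edgeR adjusted p = 0.0010), Pls3, a plastin, fell by 2.99 (edgeR adjusted p = 0.0022), and the actinin Actn4 fell by 1.59 (edgeR adjusted p = 0.0078). Flna, a filamin, fell by 1.84 (edgeR adjusted p = 0.0064), and Cnn2, a calponin, was the other gene. Of 11 genes of non-muscle myosin II and its regulators tested, only Myh9, a heavy chain, was called lower, at 445 to 657 CPM at D0 and 87.7 to 149 at D6 (log2 -2.19, SE 0.33, edgeR adjusted p = 0.0016). Of 13 genes of the Arp2/3 complex and its activators, Arpc2 fell by 0.99 (edgeR adjusted p = 0.035), and none rose.

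Srf itself was at 81.8, 157 and 164 CPM at D0 and at 41.6, 53.7 and 80.4 at D6, without overlap (log2 -1.15, edgeR adjusted p = 0.097). Its coactivator genes Mrtfa and Mrtfb had log2 differences of 0.59 and 1.52 and did not pass the test, and Myocd had no reads. The 10 further SRF targets with enough reads did not pass the edgeR test, with a median log2 difference of -1.77. Their log2 differences lay on both sides of 0, from -3.95 to 4.26. A p that misses the threshold does not show that these genes were at the same level.

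Reads after 15 h of 4sU were compared with those without 4sU within each state. At D0 edgeR called 0 of the 14 member intervals tested and 0% of 11200 intervals, with 227 intervals at an unadjusted p under 0.05 and 13 called by DESeq2. At D6 it called 0 of 10 member intervals and 0.00883% of 11321 intervals, with 640 at an unadjusted p under 0.05 and 202 called by DESeq2. Actb differed by a log2 of 0.043 (SE 0.30) at D0 and 0.19 (SE 0.15) at D6, and Cfl1 by -0.062 (SE 0.26) and 0.12 (SE 0.19). The D0 values set the group of replicate 26 against that of replicate 56 and changed sign without replicate 26. Actb was at -0.27 without replicate 26, 0.42 without replicate 56 and 0.11 without both, and Cfl1 at 0.088, -0.14 and 0.011. At D6 Actb was at 0.034 to 0.45 with a library left out, and at 0.45 without replicate 38. The difference between the states in this response was called for 0 of 14 members and 0.00769% of 13007 intervals, with 650 at an unadjusted p under 0.05 and 66 called by DESeq2. The 14 include Actg1, Tagln, Myl9 and the 766-base end of Tpm1, which had too few reads to be tested at D6 alone. That these were not called says nothing about their response. The 766-base end of Tpm1 was at 2.55 (SE 1.08, edgeR adjusted p = 0.96) and at 0.36 without D6 replicate 08. It held 3 to 5 reads in the D6 libraries without 4sU and 0 to 27 after 15 h, so that no response is read from it. The 274-base end was called when D6 replicate 38 was left out (5.10, edgeR adjusted p = 0.0039). In replicates 37 and 39, the D6 libraries without 4sU that remained, this end took 0.272% of 1102 tropomyosin reads and 0.516% of 1356. No response is therefore read from this call.

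The loss of label was then followed in the catabolic assay, with the conversion rate of an interval given as percent of its mean at 0 h. Of the 16 member intervals, 13 reached a mean coverage of 1000 T positions in a library, as did 10176 of all intervals. Actb kept more label than 3′ UTRs together in both states. At D0 it held 106% ± 2.0, 95.8% ± 5.4 and 63.3% ± 1.1 of its 0 h rate at 3, 6 and 9 h (SD, n = 3), and all 3′ UTRs together held 99.4%, 73.1% and 29.2% ± 1.2. At D6 it held 110% ± 3.1 at 3 h, 74.3% ± 5.7 at 6 h (n = 2) and 37.3% ± 3.2 at 9 h, and all 3′ UTRs together held 100.8%, 49.0% and 19.1% ± 1.4. At 6 and 9 h no Actb value overlapped those of all 3′ UTRs in the same state. The rate in cells without 4sU was 12.01% of the 0 h rate for all 3′ UTRs at D0 and 3.58% at D6. With this background subtracted, Actb held 60.7% ± 1.1 and all 3′ UTRs 19.5% ± 1.3 at 9 h at D0, and 35.99% ± 3.3 and 16.1% ± 1.4 at D6.

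**Figure D4:**
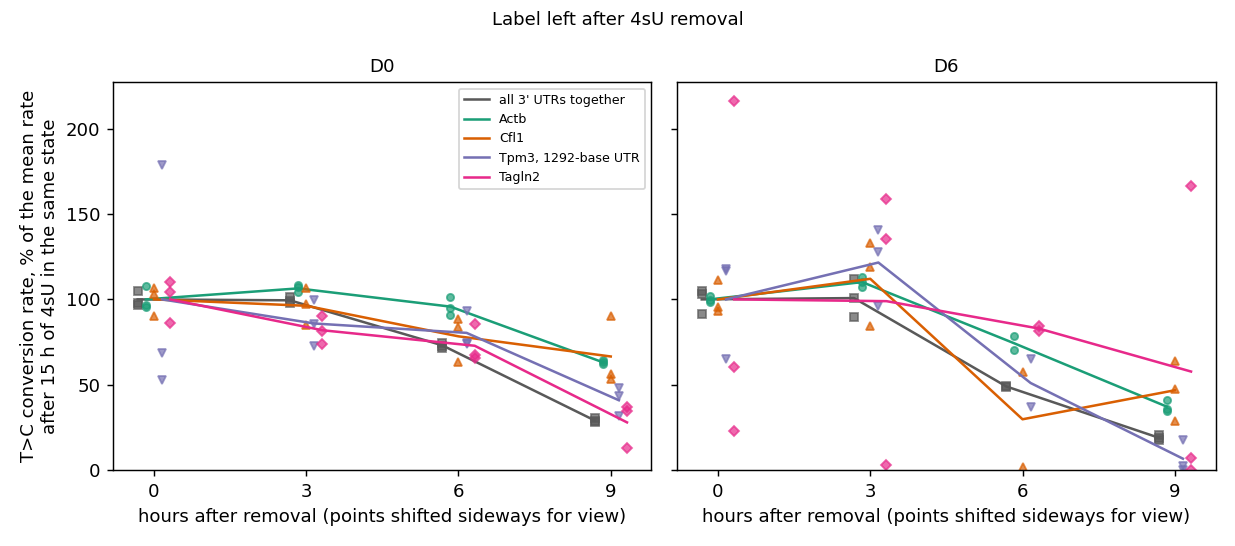
Conversion rate during the chase as percent of the mean at 0 h against hours (methods), for all 3′ UTRs together, Actb, Cfl1, the 1292-base interval of Tpm3 and Tagln2, at D0 and D6. Points are libraries and lines join means, and at 9 h Actb stands at 63.3% against 29.2% for all 3′ UTRs at D0 and at 37.3% against 19.1% at D6.

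The slope of the log2 conversion rate over the hours was tested against that of all 3′ UTRs of the same library, so that a positive slope means slower loss than the average base. At D0, 3 of 13 member intervals were called, all positive, and 7.45% of 10167 intervals were called, 3.26% positive and 4.19% negative. Actb had a slope of 0.12 per hour (SE 0.014, edgeR adjusted p = 1.7e-06), Cfl1 of 0.13 (SE 0.029, edgeR adjusted p = 0.0056) and Tagln of 0.33 (SE 0.092, edgeR adjusted p = 0.024). The median interval had a slope of -0.077. At D6, Actb alone was called (0.11, SE 0.010, edgeR adjusted p = 7.7e-06), and 0.683% of 10105 intervals were called, 0.643% positive and 0.0396% negative. Some members had too few reads at D6 for the lack of a call to say anything. Tagln, Myl9 and the 1053-base interval of Tpm2 held 3 reads or fewer in 22, 12 and 13 of 23 D6 libraries. The 766-base end of Tpm1 held 235 reads in all of them. Actb kept its call in both states whichever library was left out, with adjusted p between 9.2e-07 and 1.1e-04 at D0 and between 2.1e-06 and 4.6e-04 at D6 in edgeR. By limma on background-subtracted rates it was not called, at 0.18 (adjusted p = 0.061) at D0 and 0.13 (adjusted p = 0.36) at D6, and limma called 0 members in either state.

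Cfl1 held 96.3%, 78.4% and 66.6% ± 20.5 of its label at D0 and 112%, 29.8% (n = 2) and 46.8% ± 17.6 at D6. Its slope at D6 was 0.13 (SE 0.072, edgeR adjusted p = 0.48), as large as at D0 with a wider error, and it was called when replicate 14 of the D6 chase was left out (edgeR adjusted p = 0.049). That library, at 6 h, held 2.06% of the 0 h rate and the other library of its group 57.6%. At D0, 1 of the 3 libraries at 9 h held 90.1% and the lowest of the other two 53.3%.

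Tagln had a higher conversion rate at 9 h than at 0 h of the chase at D0, with 2.82, 4.26 and 2.88% against 1.28, 1.24 and 1.30%. In between, the rate was 2.34, 2.04 and 2.01% at 3 h and 2.72, 0.696 and 0.283% at 6 h, so that it did not move in one direction and the libraries at 6 h lay on both sides of those at 0 h. These rates came from 15 to 37 conversions per library at 0 h and 69 to 170 at 9 h. The call was lost when any of replicates 34, 35 and 36, the libraries at 9 h, was left out (edgeR adjusted p 0.063 to 0.095) and from 0 and 9 h alone (edgeR adjusted p = 0.094). At D6 Tagln had too few reads for its rate to be read.

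With the hours of the methods, all libraries and the coverage minimum of 1000 T positions, no tropomyosin was told apart from the average in the loss of label. At D0 the 274-base end of Tpm1 had a slope of 0.11 (SE 0.040, edgeR adjusted p = 0.085) and the 766-base end of 0.057 (SE 0.040, edgeR adjusted p = 0.42), Tpm2 of 0.28 (SE 0.11, edgeR adjusted p = 0.13), Tpm3 of 0.063 (SE 0.037, edgeR adjusted p = 0.32) and Tpm4 of 0.020 (SE 0.079, edgeR adjusted p = 0.92). At D6 the slopes were -0.00079 (SE 0.16) for the 274-base end of Tpm1 and 0.22 (SE 0.24) for the 766-base end. Those of Tpm2, Tpm3 and Tpm4 were negative there, at -0.41 (SE 0.24), -0.16 (SE 0.13) and -0.19 (SE 0.18), and none was called. Other settings gave calls at D0. With the label hours, the 274-base end of Tpm1 was called (0.12, edgeR adjusted p = 0.015), as was the 2195-base interval of Tpm2 (0.30, edgeR adjusted p = 0.033). A minimum of 5000 T positions gave a call to the 274-base end of Tpm1 (0.11, edgeR adjusted p = 0.0499). Leaving out replicate 26, one of the libraries that stood apart, gave Tpm3 a slope of 0.13 and a call (edgeR adjusted p = 0.027), and leaving out replicate 27 gave one to the 274-base end of Tpm1 (edgeR adjusted p = 0.019). The conversion rate of Tpm3 at 0 h was 2.82% in replicate 26 and 1.09% and 0.832% in the other libraries. Tpm3 held 40.97% ± 8.5 of its label at 9 h at D0, but 67.5% ± 13.9 when replicate 26 was left out of the 0 h mean, and 6.77% ± 9.4 at D6. For Actb, Cfl1 and Tagln2 the D0 shares at 9 h were 61.9%, 63.5% and 29.5% without replicate 26. Tagln2 had a D0 slope of 0.0016 (SE 0.039) and held 28.01% ± 13.3 of its label at 9 h, against 29.2% for all 3′ UTRs. With background subtracted the values were 27.8% ± 13.3 and 19.5% ± 1.3. At D6 the values of Tagln2 at 9 h were spread from 0 to 166%.

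For the slope at D6 against D0, edgeR called 0 of 13 members and 0.00983% of 10176 intervals, with 667 of all intervals and 4 of the members at an unadjusted p under 0.05. Tagln, Myl9, the most distal end of Tpm1 and the distal interval of Tpm2 are among the 13. They held few reads at D6, so that their lack of a call says nothing. The median over intervals was -0.100 per hour, -0.079 from 0 and 9 h alone, -0.065 with the label hours and -0.15 by limma on background-subtracted rates, where 5643 intervals could be fitted. For all 3′ UTRs together, the share left at 9 h was 29.2% at D0 and 19.1% at D6 before subtraction and 19.5% and 16.1% after it. Actb had a difference of -0.095 (SE 0.029, unadjusted p = 0.0021, edgeR adjusted p = 0.33). The 2195-base interval of Tpm2 had one of -0.78 (SE 0.31, unadjusted p = 0.015, edgeR adjusted p = 0.63), and both overlapping intervals of Tpm3 had one of -0.31 (SE 0.14, unadjusted p = 0.036, edgeR adjusted p = 0.72). If the label hours were used, Actb was called at -0.091 (edgeR adjusted p = 3.0e-04), and from 0 and 9 h alone at -0.085 (edgeR adjusted p = 6.9e-05). With the hours of the methods, Actb thus differed between the states by about as much as the median interval.

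In the anabolic assay Actb had taken up less label than 3′ UTRs together at 6 h in both states. With rates again in percent of the 15 h rate, Actb held 7.18%, 26.9% and 71.3% ± 1.1 at 3, 6 and 9 h at D0, and all 3′ UTRs held 11.3%, 38.8% and 87.5% ± 3.3. At D6 Actb held 2.35%, 26.5% and 75.3% ± 5.7, and all 3′ UTRs 4.88%, 42.1% and 77.8% ± 12.7. The groups of 3 libraries did not overlap at any time at D0 and at 3 and 6 h at D6, and overlapped at 9 h at D6. Without 4sU the conversion rate was already 6.52% of the 15 h rate for Actb at D0 and 12.01% for all 3′ UTRs, and 1.99% and 3.58% at D6. With this background subtracted, Actb held 0.705% ± 1.02 and all 3′ UTRs -0.83% ± 0.16 at 3 h at D0, the opposite order, so that the values at 3 h do not tell them apart there. At 6 h the subtracted values were 21.8% ± 1.5 and 30.4% ± 1.6 at D0 and 25.03% ± 1.6 and 39.99% ± 7.7 at D6.

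Cfl1 held 72.4% ± 5.6 at 9 h at D0 and 65.0% ± 16.7 at D6, and Tagln2 held 52.5% ± 11.2 at D0. Tpm3 held 63.2% ± 7.2 at 9 h at D0, but 104% ± 11.9 when replicate 26 was left out of the 15 h mean. For newly made RNA, the rate at 9 h of uptake over that after 15 h at D6 against D0, edgeR called 0 of the 13 members and 0% of 10173 intervals, with 781 at an unadjusted p under 0.05 and 42 called by limma. The 13 include Tagln, Myl9, the most distal end of Tpm1 and the distal interval of Tpm2, which held few reads at D6. Their SE were 7.80, 7.10, 7.61 and 6.94, so that the lack of a call says nothing about them. Actb had a log2 difference of 0.078 (SE 0.096) and Cfl1 of -0.15 (SE 0.32). The 274-base end of Tpm1 was called only without D6 replicate 54, at -12.9 (edgeR adjusted p = 0.029). Its share at 9 h of uptake at D6 ran from 0 to 70.3%, with a mean of 23.4% ± 40.6, so that nothing is read from this call.

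**Figure D5:**
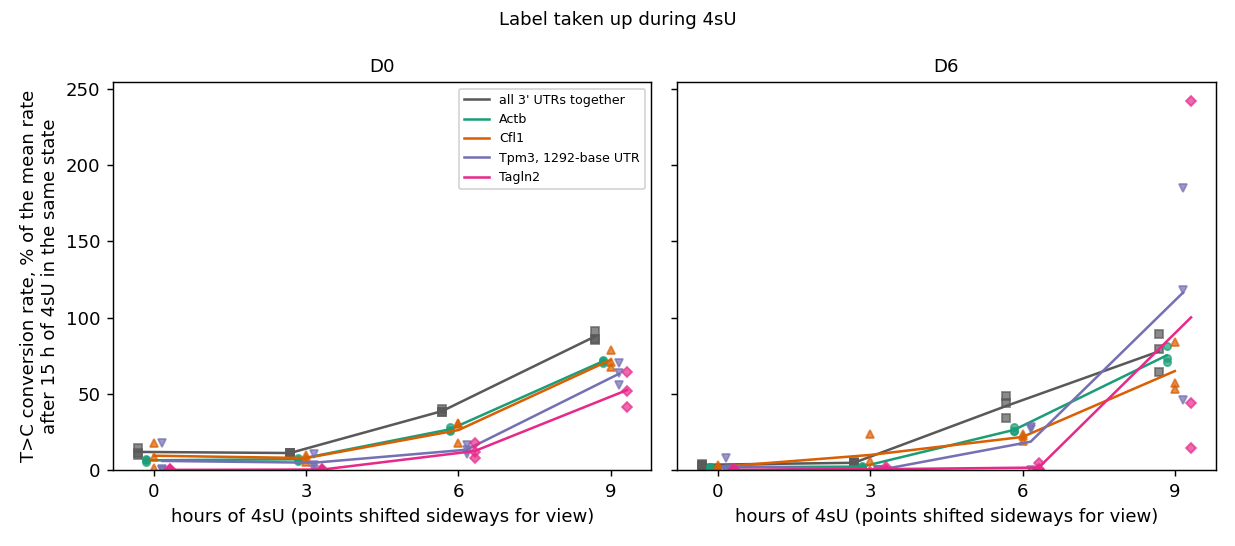
Conversion rate during uptake as percent of the mean rate after 15 h of 4sU against hours (methods), for all 3′ UTRs together, Actb, Cfl1, the 1292-base interval of Tpm3 and Tagln2, at D0 and D6. Points are libraries and lines join means, and at 6 h Actb stands at 26.9% against 38.8% for all 3′ UTRs at D0 and at 26.5% against 42.1% at D6.

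The 274-base end of Tpm1 carried T>C conversions in cells without 4sU. Its rate there was 0.496% at D0, above 91.3% of 9869 intervals, and 2.12% at D6, above 99.0% of 9779 intervals, where the median interval had 0.021% in either state. These came from 499 conversions at D0 and 49 at D6. At D6 without 4sU, this end took 12.5% of 858 tropomyosin reads in replicate 38. It took 0.272% of 1102 in replicate 37 and 0.516% of 1356 in replicate 39. The D6 rate, pooled over these libraries, thus rests mainly on the reads of 1 library. The rate of this end after 15 h of 4sU was 1.88% at D0, so that background made up a larger part of it than for Actb, with 0.080% without 4sU and 1.23% after 15 h. With background subtracted, the share this end held at 9 h of the D0 chase went from 57.6% ± 13.04 to 42.5% ± 17.7. Its relative slope at D0 was 0.13 by limma on subtracted rates (SE 0.066, adjusted p = 0.23) and 0.11 in edgeR before it, and was called in neither.

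Half-lives were fitted as an exponential loss or uptake and kept at an R squared over 0.6 and up to 5000 min. Decay half-lives were kept for Tagln2 at D0, at 459 min (SE 78), and for Actb at D6, at 627 min (SE 159), where the medians over all kept intervals were 280 min of 1507 at D0 and 218 min of 1685 at D6. The decay of Actb at D0 was not kept with all hours of the methods, at an R squared of 0.49. Synthesis half-lives were kept for Actb at 501 min (SE 83) at D0 and 495 min (SE 97) at D6, for Cfl1 at 495 min (SE 90) and 566 min (SE 105), and for Tpm4 at 624 min (SE 142) and 744 min (SE 125). Tagln2 had one of 833 min (SE 176) at D0. The decay value of Actb at D6, at an R squared of 0.63, was kept in 8 of 11 fits with a library left out (575 to 640 min) and not without replicate 16, 17 or 18, the libraries at 9 h, where no member was kept. The synthesis value of Tpm4 at D0 was kept in 9 of 15 such fits and not without replicate 26, 55, 56, 57, 71 or 72, and that of Tagln2 in 13 of 15 and not without replicate 70 or 71. In addition, 2 member intervals in place of 1 kept a decay half-life at D0 without replicate 26. Medians over all kept intervals were 421 min of 2161 at D0 and 381 min of 961 at D6. For each of these 3 genes with a synthesis half-life in both states, the states differed by less than the sum of their SE with these hours. With the label hours the decay half-life of Actb at D6 was 429 min, that of Actb at D0 was kept at 979 min (SE 163, R squared 0.78), and that of Tagln2 at D0 was 314 min, and the synthesis half-lives of Actb were 337 and 325 min at D0 and D6. The methods and the labels agree on 0 and 9 h, and fits to these alone gave shorter values than all hours of the methods. The decay half-life of Actb was then kept in both states, at 817 min (SE 72, R squared 0.95) at D0 and 379 min (SE 14, R squared 0.996) at D6, and that of Tagln2 at D0 was 294 min (SE 55). Synthesis half-lives from 0 and 9 h were 299.7 min (SE 25) at D0 and 268 min (SE 17) at D6 for Actb, 291 min (SE 46) and 357 min (SE 60) for Cfl1, and 502 min (SE 58) for Tagln2 at D0. For Tpm4 they were 375 min (SE 85) at D0 and 617 min (SE 48) at D6, a difference above the sum of their SE. The length of a half-life here thus depends on which hours are used. For Actb, the values from 0 and 9 h lay nearer to those with the label hours than to those with all hours of the methods. The R squared of its decay fit was also higher with the label hours, 0.78 against 0.49 at D0 and 0.87 against 0.63 at D6. Which hours apply was not tested.

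Over the means of the 16 groups, the genes with reads most like those of Actb were Armcx2, Pom121 and Zfp26, with Pearson r of 0.781, 0.723 and 0.699. Those most like Tagln were Map3k5, Efhd1 and Htra1, with r of 0.995, 0.992 and 0.992, all at a mean of 0 to 0.213 CPM at D6 without 4sU. Their highest levels at D6, 15.97, 26.9 and 4.37 CPM, were above their lowest at D0. The groups share a cell state and, in part, the libraries that stood apart, and these values are a description of likeness only.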

How the data were processed

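The authors mapped QuantSeq 3′ end reads to mm10 with SLAMdunk 0.3.3 and called and masked polymorphisms. They counted reads and T>C conversions over 3′ UTR intervals, which carry RefSeq names in the files, whereas the methods name GENCODE vM17. Per the file headers, each file holds counts of reads, covered T positions and conversions. The deposited conversion rate, a fraction, and the deposited CPM, scaled to mapped reads, were not used. No reads in the deposited counts map to several places, and there are no molecular identifiers.

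Each file lists 39419 intervals, of which 30432 are distinct. CPM were recomputed over all reads on 3′ UTRs. The genes, their intervals and all gene lists were chosen with earlier results of these data known. Every member interval was named, together with all genes of the lists of muscle actins and of SRF and its coactivators. Of the longer lists, the 2 genes with the largest and the 2 with the smallest log2 difference past the test were named, and Cnn2 after its values were seen. For Actb and Tagln, the 3 genes with the most similar mean log2 levels over the 16 groups were named.

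Read counts were tested by the quasi-likelihood method of edgeR 4.0.16 (R 4.3.3), normalized by TMM and filtered by filterByExpr, and p-values were adjusted by Benjamini-Hochberg at 0.05. Conversion counts were tested likewise for intervals with a mean coverage of 1000 T positions or more. Their offset was the log of the coverage of T, multiplied by the rate of the library over all 3′ UTRs where slopes are relative. The SE of a log2 value is its size over the square root of F and is approximate. Half-lives were fitted by least squares in Python 3.11.15 with numpy 2.4.6. The scripts were tested on simulated data. Alternatives were DESeq2 1.42.0, rates after subtraction of background in limma 3.58.1, other filters, coverage minimums and hours, counts per transcript, and each library left out in turn. Figures were drawn with matplotlib 3.10.9.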

Additional observations from a re-analysis of the deposited data

How the results depend on the processing

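No paired analysis was possible because the groups share no replicate number. Counts of actin list genes past the test between D6 and D0 without 4sU moved from 13 to 24 with DESeq2 and to 21 without a filter on low counts, and lay between 7 and 16 with a library left out, with 7 without D6 replicate 37. Counts over all intervals moved from 1366 to 2176 with DESeq2 and 2148 per transcript, and to 791 to 870 without a D6 library. For 4sU against none and its difference between states, 0 members were called under every alternative that left out no library, and with a library left out 0 to 1, while counts over all intervals at D0, at D6 and for the difference went from 0, 1 and 1 to 13, 202 and 66 with DESeq2 and to 3, 42 and 32 without the filter. Leaving out replicates 26 and 56 together, chosen after seeing the data, gave 18 intervals for the difference. Members called in the relative slope at D0 moved from 3 to 5 with the hours of the labels and to 0 with limma, where 8892 intervals were tested, and lay between 2 and 5 with a library left out. At D6 they moved from 1 to 0 with limma and lay between 1 and 2. For the slope at D6 against D0 they moved from 0 to 1 with the hours of the labels and to 1 from 0 and 9 h alone, and were 0 with any library left out. For newly made RNA they lay between 0 and 1. The causes were not tested. Over all intervals, the relative slope at D0 gave 757 calls, 1747 with the hours of the labels, 435 from 0 and 9 h and 449 without replicate 36. At D6 it gave 69, 168 with the hours of the labels and 151 without replicate 14, and the slope at D6 against D0 gave 1, 92 with the hours of the labels and 31 from 0 and 9 h.

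Member intervals with a decay half-life numbered 1 in either state, at D0 3 with the hours of the labels, 5 from 0 and 9 h and 9 with no minimum of R squared, and at D6 3, 5 and 11. For synthesis they numbered 4 at D0 and 8, 8 and 13 under these settings, and 3 at D6 and 10 with no minimum. With a library left out, they lay between 1 and 2 and between 0 and 3 for decay at D0 and D6, between 2 and 6 for synthesis at D0 and at 3 at D6. The slope of Tagln2 changed sign from 0 and 9 h at D0 (-0.0076), with limma for D6 against D0 (-0.085), and with a library left out, where it ran from -0.021 to 0.030 at D0, from -0.066 to 0.30 at D6 and from -0.11 to 0.21 for D6 against D0. The read differences of Actg1 (-2.04 to 0.082), the 329-base end of Tpm3 (-1.94 to 0.49) and Tpm4 (-0.50 to 0.20) crossed 0 with a library left out. At D6, 22 of 23 libraries held 3 reads or fewer of Tagln and 12 of Myl9, and the 766-base end of Tpm1 had 235 reads in all, which limits any reading of their label. The D0 label shares without replicate 26 were computed after seeing the data.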
